A study of Mus musculus with 16 samples.

Results

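Aortas of ApoE-/- mice fed a Western diet for 22 weeks were compared with aortas of ApoE-/- mice fed a normal purified diet for the same time, across all expressed loci of the deposited gene table. The members were the loci that name a gene and reached 1 FPKM (fragments scaled by transcript length and by sequencing depth) in at least 4 of the 8 libraries of 22 weeks. They numbered 18658 of the 70603 deposited loci, 66889 of which name a gene. Of the members, 17327 name 1 gene and 1331 name 2 or more. A gene can own several loci, so the members carry 14336 distinct names. The Western group and the normal group each held 4 libraries from mice aged 8 weeks at the start of feeding and 30 weeks at tissue collection, with 8 further libraries from mice fed for 6 weeks (4 per diet) sharing the estimate of spread. All groups carry the same loss of apolipoprotein E, although the genotype label says knockdown where the design text says ApoE-/-, and there is no wild-type group. The labels do not say whether replicates are separate animals or pools, and they give no sex, so the p-values measure only the spread between these samples.

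Apolipoprotein E lets the liver clear remnant lipoproteins, and mice without it build up cholesterol in blood and in the arterial wall, more so on a fat- and cholesterol-rich diet. The plaques that form hold macrophages that take up lipid and smooth muscle cells that leave their contractile state and lay down matrix. A dissected mouse aorta also brings along adventitia and perivascular fat, which around the thoracic aorta resembles brown fat: it is rich in mitochondria, burns fatty acids and makes heat through uncoupling protein 1. In bulk tissue RNA, fewer cells of a type and less RNA per cell cannot be told apart. Genes of the lysosome and of lipid-laden macrophages are set aside here and are touched only where they pass the test or give scale.

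Total estimated counts ran between 54178621 and 69280625 in the Western libraries, against 45253433 to 65939041 in the normal libraries (exact two-sided permutation test, p = 0.4). Smooth muscle, endothelial and fibroblast markers were expressed in all 8 libraries, as the aorta label requires, and so were red blood cell genes. Several libraries stood apart. Western replicate 2 was highest in fat and mitochondrial genes and lowest in contractile genes. Western replicate 3 and normal replicate 4 had summed cardiac muscle markers of 197 and 271 FPKM, against 8.55 to 14.1 FPKM in the other 6 libraries. Normal replicate 4 also had 372 FPKM of B and plasma cell markers, against 5.07 to 58.7 FPKM elsewhere. In a principal component analysis of the 2000 loci of largest variance, component 1 (31.0% of the variance) placed the Western libraries at 9.21, 25.7, 11.9 and 5.60 and the normal libraries at -26.9, -29.8, -3.92 and 8.09. Normal replicate 4 thus fell within the range of the Western libraries on this axis.

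Western feeding for 22 weeks went with a small set of passing loci, most of them higher. At an adjusted p under 0.05, 78 of 18658 loci (0.418%) differed by the quasi-likelihood test of edgeR, adjusted over all loci by Benjamini-Hochberg: 60 were higher (0.322%) and 18 were lower (0.0965%) with the Western diet. The higher ones were led by fat and mitochondrial genes, such as Fabp3 and Cox8b, and by the sterol sensor gene Insig1. The lower ones included Rtn4rl2, Msrb3, Selenow and Hsd11b1. All 78 loci had FPKM ranges that did not overlap between the diets. Among all loci, 1186 were higher without overlap (6.36%) and 435 were lower without overlap (2.33%). The sizes were modest: 90% of loci had a log2 fold change between -0.60 and 0.61, the median was -0.02, and 216 loci lay above 1 and 186 below -1. The change was positive in 47.6% of all loci. That share was 58.0% among protein-coding loci (median 0.04) and 62.9% among loci of 10 to 100 FPKM (median 0.09). The smallest passing change had a log2 size of 0.43. Of the passing loci, 6 of the 60 higher ones reached 1 FPKM in the Western libraries alone and 2 of the 18 lower ones in the normal libraries alone, so they became members only through the diet in which they were high and their test is no independent evidence. The count depended strongly on the fit. An edgeR fit of the 22-week libraries alone passed 0 loci, with 2473 at an unadjusted p under 0.05 (2905 in the fit of all 16 libraries), while DESeq2 on the same 8 libraries passed 582 and limma on their log2(FPKM + 0.5) passed 0. With all 16 libraries, DESeq2 passed 826 loci (597 higher, 229 lower) and limma on log2(FPKM + 0.5) passed 251 (220 higher, 31 lower). Leaving out 1 of the 22-week libraries gave between 8 passing loci, without normal replicate 2, and 502, without normal replicate 4. The background for the list counts below is 2905 of 18658 loci at an unadjusted p under 0.05, 826 by DESeq2 and 251 by limma.

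**Figure D1:**
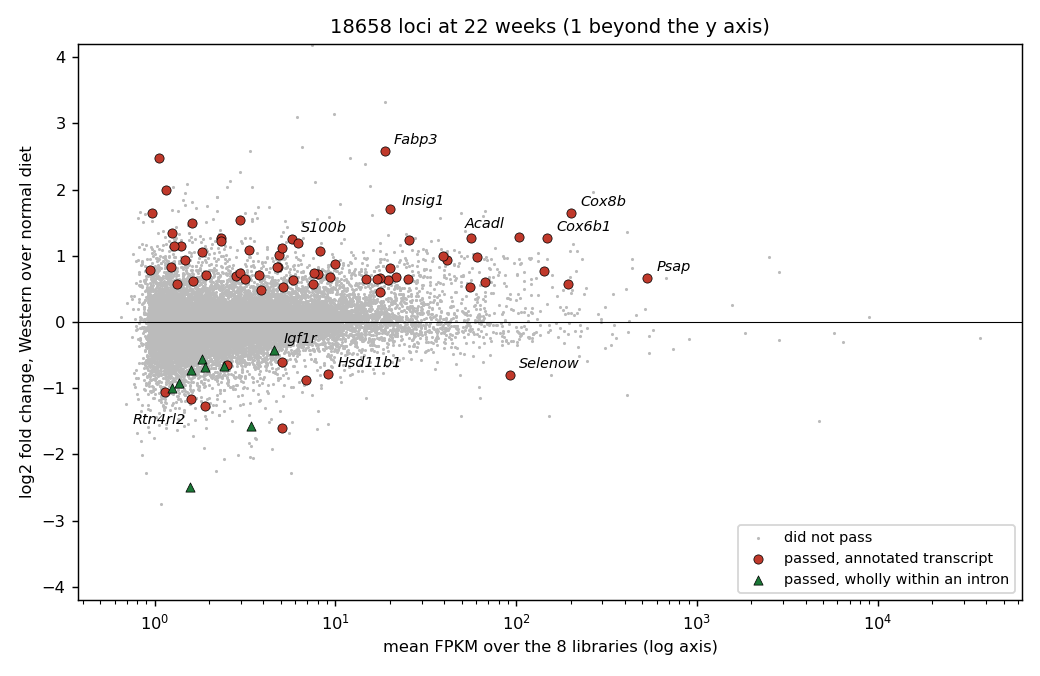
Log2 fold change of Western over normal diet (y axis) against mean FPKM over the 8 libraries of 22 weeks (x axis, log scale) for 18658 loci, with the 78 passing loci as large symbols. Passing loci with an annotated transcript lie on both sides (60 higher, 9 lower), while the 9 passing loci within introns are all lower.

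Fabp3, the fatty acid carrier of heart, muscle and brown fat, had the largest rise among the genes named by fold. It stood at 27.9, 44.9, 34.3 and 21.9 FPKM in the Western libraries, against 2.26, 4.72, 4.68 and 9.83 FPKM in the normal libraries. Every Western library was above every normal one, and the log2 fold change was 2.58 ± 0.35 (SE, edgeR adjusted p = 0.013). A Fabp3 pseudogene passed as well, with 1 FPKM reached in the Western libraries alone, so shared reads cannot be told apart from expression of the pseudogene. Cox8b, the muscle and brown fat form of a cytochrome c oxidase subunit, had 236, 462, 289 and 237 FPKM with the Western diet and 56.0, 73.4, 104 and 157 FPKM with the normal diet. Its groups did not overlap, and its log2 fold change was 1.65 ± 0.29 (edgeR adjusted p = 0.027). Normal replicate 4 was the closest to the Western libraries for both genes.

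**Figure D2:**
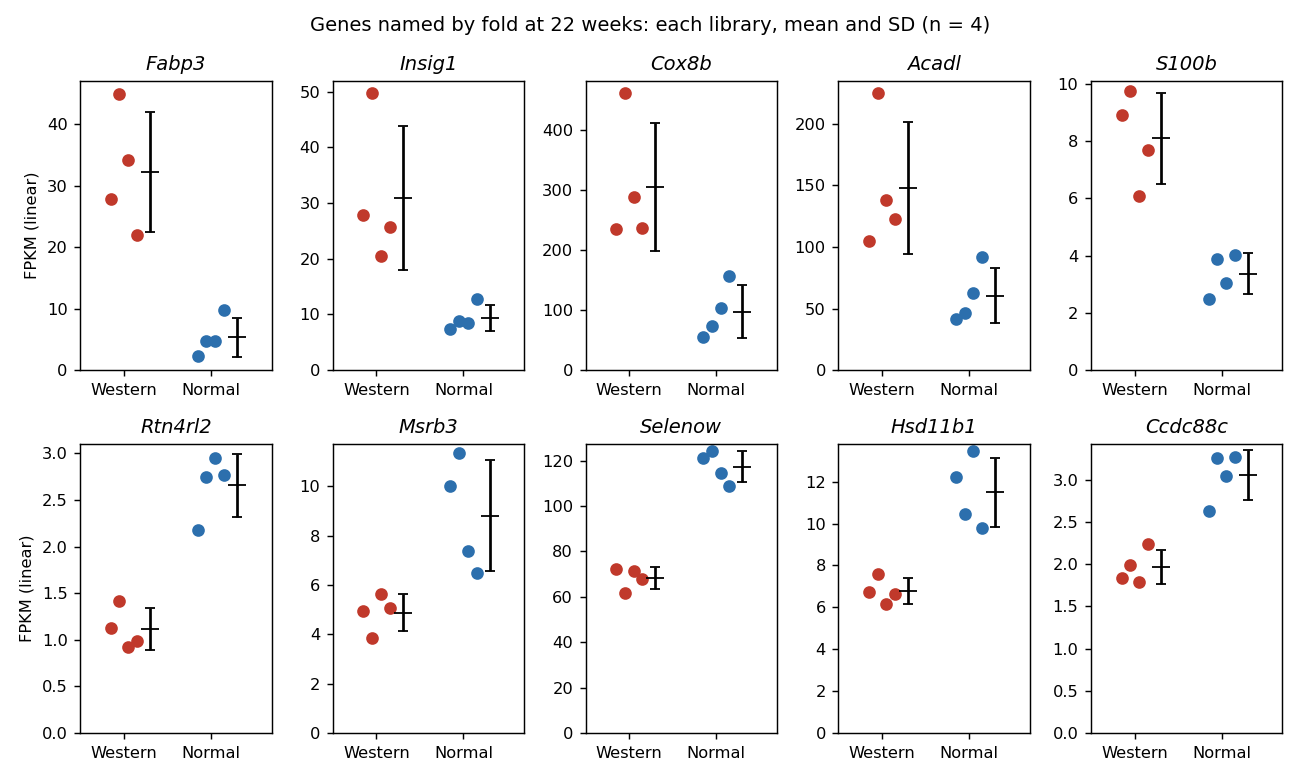
FPKM (linear axes from 0) of 5 genes that rose and 5 that fell, one dot per library, Western left and normal right, with the mean and SD (n = 4) beside the dots. No panel has overlapping groups, as for Fabp3 with 21.9 to 44.9 FPKM in Western and 2.26 to 9.83 FPKM in normal libraries.

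Genes of mitochondrial energy metabolism were mostly higher with the Western diet, although few passed singly. All 22 measured genes of lipolysis and fatty acid oxidation had a positive log2 fold change, with a median of 1.05, against -0.02 over all loci. Of these, 2 rose, 0 fell and 20 did not pass, while 20 had an unadjusted p under 0.05 and 18 passed by DESeq2 over all 16 libraries. Acadl, the long-chain acyl-CoA dehydrogenase, rose with 105, 225, 138 and 123 FPKM in Western libraries, against 41.3, 46.6, 62.7 and 91.5 FPKM in normal libraries (log2 fold change 1.29 ± 0.26, edgeR adjusted p = 0.048). Hadhb, the thiolase subunit of the trifunctional protein, rose with 60.6, 129, 65.4 and 62.4 FPKM, against 22.8, 29.9, 32.1 and 46.5 FPKM (1.27 ± 0.26, edgeR adjusted p = 0.044). In both genes the Western replicate 2 was far above its group and the normal replicate 4 was nearest to it. Reads of Hadhb can be shared with its pseudogene Hadhb-ps, which also passed. Etfdh, which passes electrons from these enzymes to ubiquinone, was at 1.20 ± 0.26 with an edgeR adjusted p of 0.056.

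The nuclear-encoded subunits of oxidative phosphorylation were all positive as well, 31 of 31, with a median log2 fold change of 0.90. By edgeR 0 passed, with a lowest adjusted p of 0.051, while 30 had an unadjusted p under 0.05, 27 passed by DESeq2 and 16 by limma. The diets did not overlap for 27 of the 31, all higher with the Western diet. Higher without overlap were 6.36% of all loci and 18.5% of loci of 10 to 100 FPKM. Ndufv1, a flavoprotein subunit of complex I, had 51.4, 89.5, 57.4 and 52.1 FPKM in Western libraries and 27.3, 31.6, 32.2 and 42.7 FPKM in normal libraries (log2 fold change 0.90 ± 0.19). Outside that list, Cox6b1 of complex IV (1.27 ± 0.25, edgeR adjusted p = 0.044) and Uqcr11 of complex III (1.0 ± 0.18, edgeR adjusted p = 0.032) rose. Without Western replicate 2, 3 or 4 or normal replicate 1, 2 or 3, each left out singly, Acadl, Hadhb, Suclg1 and Cox6b1 no longer passed. The mitochondrial genome itself gave no information: its 37 loci were listed at a count of 0 in all libraries.

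Of the 15 citric acid cycle genes, 15 were positive (median log2 fold change 0.95) and 1 rose by edgeR, while 15 had an unadjusted p under 0.05, 12 passed by DESeq2 and 7 by limma. The gene that rose was Suclg1, a subunit of succinyl-CoA synthetase, with 29.5, 53.1, 31.3 and 29.2 FPKM in Western libraries and 10.1, 11.9, 15.7 and 22.8 FPKM in normal libraries (1.24 ± 0.25, edgeR adjusted p = 0.049). Among mitochondrial ribosomal proteins 21 of 22 were positive (median 0.47, 16 unadjusted, 7 by DESeq2), and Mrpl4 (0.65 ± 0.10, edgeR adjusted p = 0.017) and Mrpl34 (0.94 ± 0.18, edgeR adjusted p = 0.037) rose. Slc25a42, which carries coenzyme A into mitochondria, rose (1.20 ± 0.25, edgeR adjusted p = 0.049). So did Mcat of mitochondrial fatty acid synthesis (0.73 ± 0.13, edgeR adjusted p = 0.026) and Mcee of propionate breakdown (1.13 ± 0.22, edgeR adjusted p = 0.044), both picked after their values were seen. Cytosolic ribosomal proteins, in contrast, had 30 of 33 negative, a median of -0.14 and 0 passing genes by edgeR or DESeq2 (lowest edgeR adjusted p = 0.17). Of these, 6 had an unadjusted p under 0.05, near the share over all loci (2905 of 18658).

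**Figure D3:**
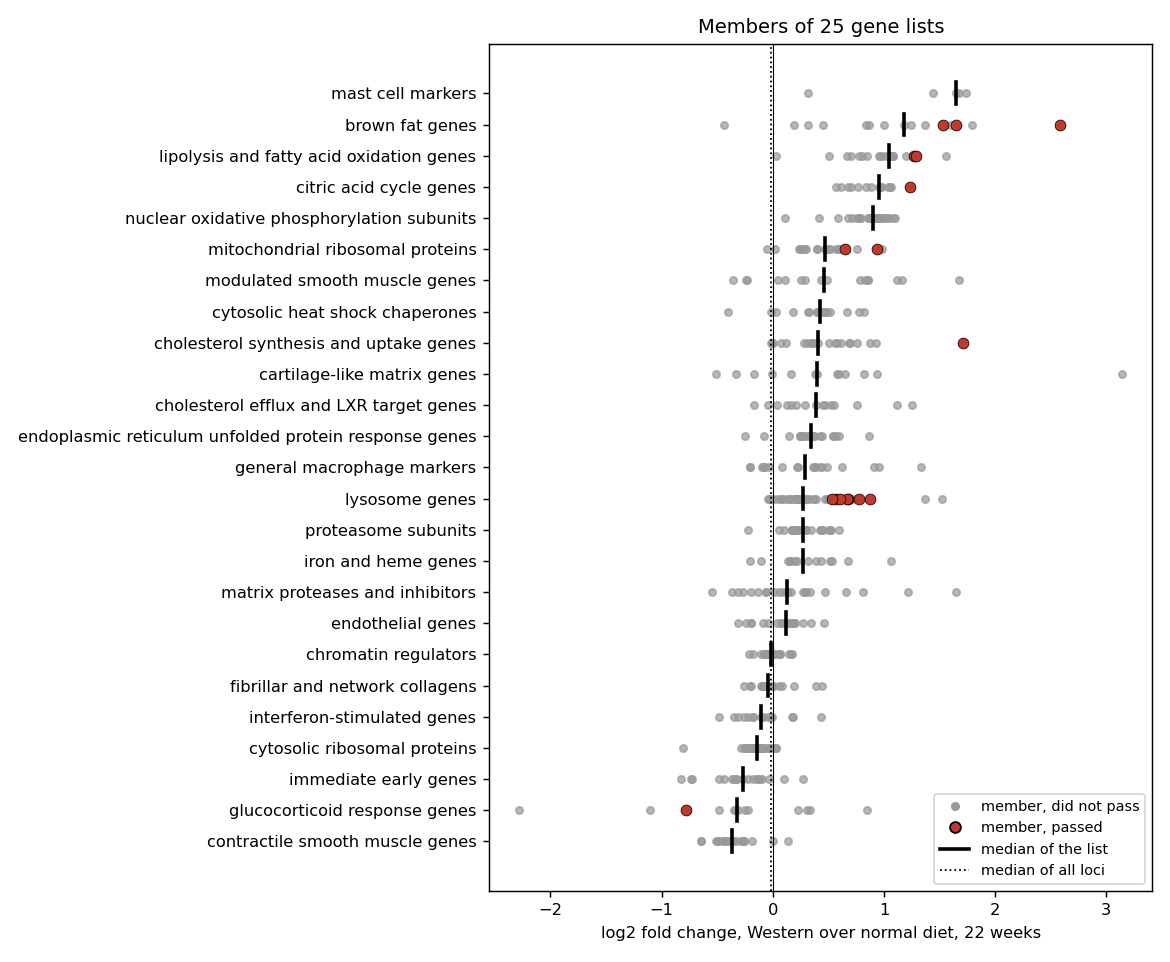
Log2 fold changes of Western over normal diet at 22 weeks (x axis) for the members of 25 gene lists, ordered by their median (black bar), with passing members in red and the median of all loci dotted. Of the lists shown, mast cell, brown fat and mitochondrial lists lie highest, contractile smooth muscle genes lowest (median -0.37). Skeletal muscle markers (median 1.96) and B and plasma cell markers (median -1.42) are not shown and lie further out.

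Brown fat genes had the same direction as the mitochondrial genes. Of 15 measured, 14 were positive, 3 rose by edgeR (Fabp3, Cox8b and Kng2) and 0 fell, with a median log2 fold change of 1.18. In the same list 11 had an unadjusted p under 0.05, 11 passed by DESeq2 and 5 by limma. The summed level of the 18 listed brown fat genes was 1195, 1948, 1045 and 935 FPKM in the Western libraries, against 269, 341, 654 and 710 FPKM in the normal libraries. The groups did not overlap, and Western replicate 2 was the highest and normal replicate 1 the lowest. Ucp1, the uncoupling protein itself, had 645, 919, 430 and 383 FPKM in Western libraries, against 97.9, 129, 367 and 322 FPKM in normal libraries. Its highest normal library lay just under its lowest Western library, and it did not pass (1.37 ± 0.40, edgeR adjusted p = 0.12). Cidea, a lipid droplet protein of brown fat, was at 1.0 ± 0.25 (edgeR adjusted p = 0.079), Cox7a1 at 1.60 ± 0.35 (0.056 by the same test) and Adrb3, the fat cell adrenergic receptor, at 1.25 ± 0.29 (0.065). Dio2, which activates thyroid hormone, was the exception at -0.44 ± 0.25 (edgeR adjusted p = 0.42). Genes of white fat cells and lipid droplets had 14 of 16 loci positive with a median of 0.37 and 0 passing by edgeR (6 unadjusted, 1 by DESeq2). Their median was 0.03 without Western replicate 2 and normal replicate 1, and their sums overlapped (1270 to 2437 FPKM against 932 to 1816 FPKM).

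How much perivascular fat each library held was not measured, and its part in the mitochondrial result was not tested. With the most and least brown-fat-rich libraries left out together (Western replicate 2 and normal replicate 1, a choice made after seeing the data), 13 loci passed, all of them higher, and 12 of those were among the 78. The list medians then were 0.60 for fatty acid oxidation, 0.59 for oxidative phosphorylation, 0.56 for the citric acid cycle and 0.81 for brown fat genes. Fabp3 was still among the passing loci, as were Plxna1 and Ltbp2. At 6 weeks, by contrast, the list medians were -0.03 for fatty acid oxidation, -0.15 for oxidative phosphorylation and 0.03 for brown fat genes. Both diets at that age had higher levels than either diet at 22 weeks for Cox8b, with 615 ± 107 FPKM (Western) and 565 ± 92.1 FPKM (normal) at 6 weeks, against 306 ± 107 FPKM (Western) and 97.5 ± 44.2 FPKM (normal) at 22 weeks (SD, n = 4 each). Ages were not compared by a test.

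Skeletal muscle RNA also differed between libraries. Of 18 skeletal muscle markers, 6 were measured, 5 were positive and 0 passed by edgeR (lowest adjusted p = 0.079, with 4 at an unadjusted p under 0.05 and 4 by DESeq2). Their median log2 fold change, 1.96, was the highest of all lists. The summed level of all 18 listed markers (16 loci) was 121, 95, 97.8 and 18.0 FPKM in the Western libraries, against 12.8, 9.04, 23.9 and 12.6 FPKM in the normal libraries. Western replicate 4 lay among the normal libraries. Ckm, muscle creatine kinase, was at 12.9, 11.8, 17.7 and 1.40 FPKM, against 1.12, 0.676, 1.23 and 2.05 FPKM, and Acta1, skeletal alpha-actin, at 56.9, 41.3, 32.4 and 5.88 FPKM, against 3.77, 0.454, 7.93 and 1.13 FPKM. Fabp3 and Cox8b are also expressed in skeletal and heart muscle, and the part of muscle RNA in their values was not tested.

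**Figure D4:**
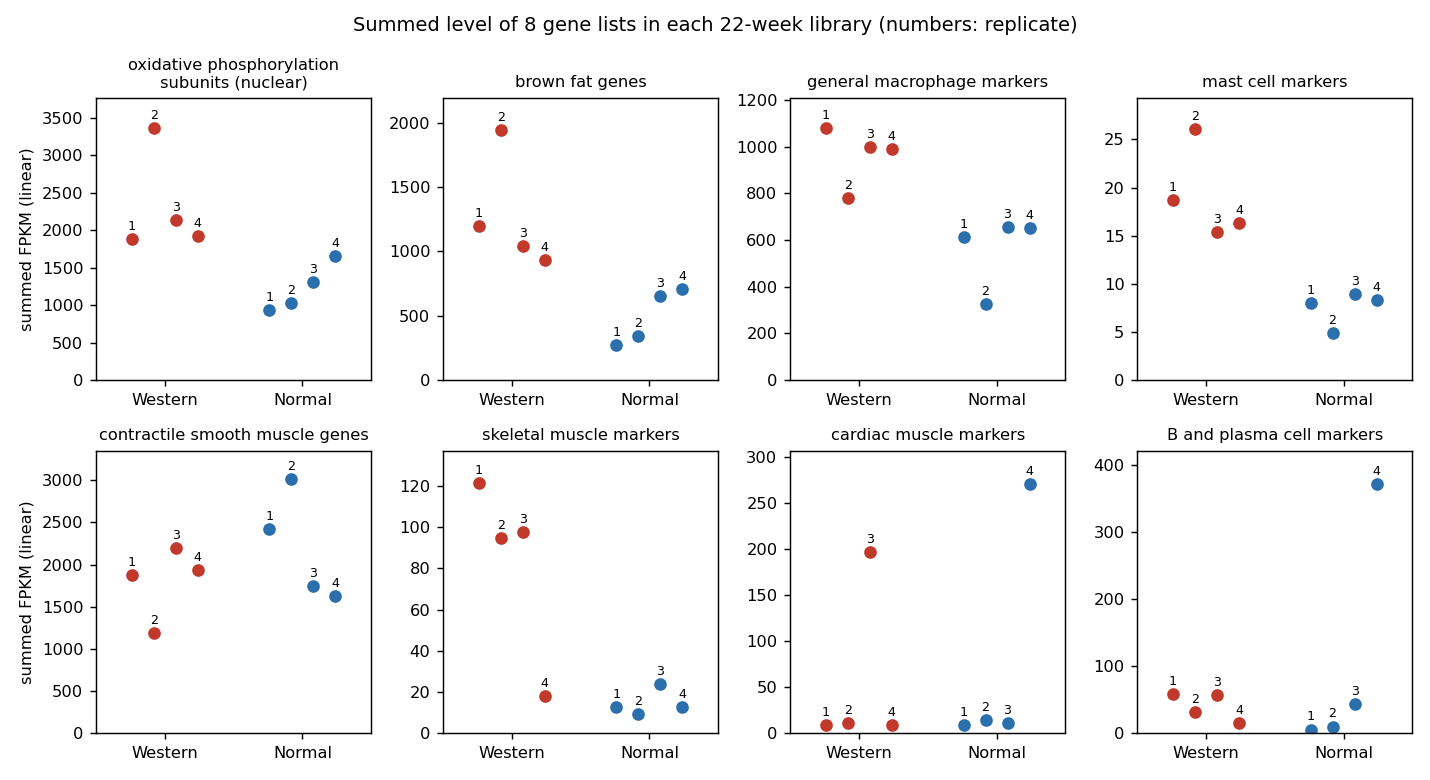
Summed FPKM (linear axes from 0) of 8 gene lists in each 22-week library, Western left and normal right, with replicate numbers. Oxidative phosphorylation subunits, brown fat genes, macrophage markers and mast cell markers are higher in every Western library, while contractile, skeletal muscle, cardiac and B cell lists overlap and single libraries stand out.

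Sterol genes were mostly higher as well. Insig1 encodes a protein of the endoplasmic reticulum that holds back the SREBP transcription factors when sterols are plentiful and is itself an SREBP target. It had 27.8, 49.8, 20.5 and 25.6 FPKM in the Western libraries, against 7.36, 8.91, 8.52 and 12.8 FPKM in the normal libraries. The groups did not overlap (log2 fold change 1.71 ± 0.27, edgeR adjusted p = 0.017). Of 21 measured genes of cholesterol synthesis and uptake, 19 were positive with a median of 0.40, and Insig1 was the 1 that rose by edgeR (6 unadjusted, 4 by DESeq2). Lss, the lanosterol synthase, was at 0.70 ± 0.21 (edgeR adjusted p = 0.12), and the locus holding Acat2 with its neighbour Acat3 was at 0.75 ± 0.23 (0.12 by the same test). Of 15 measured targets of the lipid-sensing receptor LXR and exporters of cholesterol, 13 were positive with a median of 0.39 and 0 passed by edgeR (9 unadjusted, 5 by DESeq2). Abcg1, a cholesterol exporter, came closest with 17.5, 12.5, 15.9 and 14.3 FPKM in Western libraries and 9.99, 6.08, 9.66 and 9.23 FPKM in normal libraries (0.76 ± 0.17, edgeR adjusted p = 0.060). Genes of fatty acid and triglyceride synthesis had 14 of 15 positive with a median of 0.30 and 0 passing by edgeR (4 unadjusted, 1 by DESeq2). Their median was -0.01 without Western replicate 2 and normal replicate 1. Scd1, the stearoyl-CoA desaturase and one of the most abundant transcripts, overlapped between the diets with 2481 to 5147 FPKM and 891 to 2914 FPKM.

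The promoters of 3 genes that the results turn on are shown from RefSeq (GRCm38.p6). Each window is the 250 bases before a listed transcript start, on the gene's own strand. Other starts of these genes are not shown. The deposited Hsd11b1 locus runs past its window to base 193268066, and the loci of Insig1 and Fabp3 start within theirs. Insig1 is given as the sterol gene that rose, Fabp3 as the largest rise and Hsd11b1 as the gene that passed as lower at both ages. Capitals mark the E-box CACGTG and the CCAAT box (CCAAT, or ATTGG on the other strand), the 2 motifs found in these windows.
Insig1, chr5:28071162-28071411, plus strand: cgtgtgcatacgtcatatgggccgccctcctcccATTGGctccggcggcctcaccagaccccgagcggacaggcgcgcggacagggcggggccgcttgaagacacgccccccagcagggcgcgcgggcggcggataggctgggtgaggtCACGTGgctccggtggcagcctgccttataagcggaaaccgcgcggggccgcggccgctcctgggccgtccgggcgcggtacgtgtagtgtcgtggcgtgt
Fabp3, chr4:130308488-130308737, plus strand: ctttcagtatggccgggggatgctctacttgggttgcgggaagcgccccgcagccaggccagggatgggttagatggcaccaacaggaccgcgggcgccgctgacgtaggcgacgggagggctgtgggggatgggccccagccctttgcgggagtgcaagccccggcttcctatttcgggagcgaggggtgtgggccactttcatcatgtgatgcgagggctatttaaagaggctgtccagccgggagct
Hsd11b1, chr1:193242361-193242610, minus strand: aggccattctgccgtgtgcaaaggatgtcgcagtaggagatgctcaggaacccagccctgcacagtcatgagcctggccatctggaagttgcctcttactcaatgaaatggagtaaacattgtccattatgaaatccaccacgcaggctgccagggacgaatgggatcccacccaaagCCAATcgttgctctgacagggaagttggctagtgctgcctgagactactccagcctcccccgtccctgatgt

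In these windows Insig1 held 1 E-box and 1 CCAAT box, Hsd11b1 held 1 CCAAT box, and Fabp3 held neither. Both strands of all 27025 gene windows were searched. The E-box was in 1854 (6.86%), in 5 of the 48 windows of genes that rose and in 0 of the 12 of genes that fell. The CCAAT box was in 37.5% of all windows, in 16 of 48 and in 5 of 12. The nuclear receptor half-site AAGGTCA was in 4.70% of all windows, in 1 of 48 (Psap) and in 1 of 12 (Igf1r). The sterol regulatory element TCACNCCAC was in 1.22% of all windows and in 1 of 48 (Wdr91). The lysosome gene element TCACGTGA, which contains the E-box, was in 0.907% of all windows and in 2 of 48 (Ctsd and Osbpl8). These matches are a description of the letters.

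Of the 18 loci that fell, 9 had a mean under 2 FPKM. Rtn4rl2, a membrane receptor related to the Nogo receptor of neurons, had 1.13, 1.42, 0.924 and 0.987 FPKM in Western libraries, against 2.17, 2.75, 2.95 and 2.77 FPKM in normal libraries (-1.27 ± 0.26, edgeR adjusted p = 0.047). Its group ranges were well apart at a low level.

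Selenow, a small selenoprotein abundant in muscle, had the lowest unadjusted p outside the set-aside lists (1.5e-06) and was the most abundant of the loci that fell. It had 72.4, 61.8, 71.3 and 67.8 FPKM in the Western libraries, against 121, 124, 114 and 109 FPKM in the normal libraries. Its spread within each diet was small and its log2 fold change was -0.80 ± 0.11 (edgeR adjusted p = 0.013). Msrb3, a methionine sulfoxide reductase of smooth muscle and other cells, fell with 4.95, 3.83, 5.62 and 5.07 FPKM, against 10.0, 11.3, 7.38 and 6.48 FPKM (-0.88 ± 0.18, edgeR adjusted p = 0.049). Ccdc88c, a Wnt pathway scaffold, fell as well (-0.65 ± 0.13, edgeR adjusted p = 0.044). The locus naming Il11ra2 with Gm12394 fell (-1.17 ± 0.23, edgeR adjusted p = 0.044), and reads of such near-copies of Il11ra1 are uncertain. Another locus naming Il11ra2 has a higher level and did not pass (-0.39 ± 0.15, edgeR adjusted p = 0.22).

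Hsd11b1 regenerates active glucocorticoid inside cells. It had 6.71, 7.60, 6.16 and 6.65 FPKM in the Western libraries, against 12.2, 10.5, 13.4 and 9.80 FPKM in the normal libraries (-0.78 ± 0.13, edgeR adjusted p = 0.023). The groups did not overlap. It was the 1 locus that passed at both ages, with a log2 fold change of -1.43 ± 0.13 at 6 weeks (edgeR adjusted p = 0.00017). The difference of the 2 diet effects was 0.65 ± 0.19 and did not pass (edgeR adjusted p = 0.15). Among 14 glucocorticoid response genes, 4 were positive and 10 negative with a median of -0.32. Hsd11b1 was the 1 that passed by edgeR (5 unadjusted, 3 by DESeq2). At 6 weeks the same list leaned the other way, with 11 of 14 positive and a median of 0.38. Fkbp5, a glucocorticoid-induced chaperone of the receptor, had 1.66, 1.85, 1.93 and 2.31 FPKM in Western libraries, against 5.25, 2.63, 3.01 and 5.64 FPKM in normal libraries (-1.11 ± 0.26, edgeR adjusted p = 0.068). Zbtb16, represented by an intronic locus, overlapped between the diets (-2.28 ± 0.62, edgeR adjusted p = 0.099). Per1 was at -0.77 ± 0.27 (edgeR adjusted p = 0.17), and the clock genes as a list had 10 positive and 8 negative members with a median of 0.01.

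In the vessel wall lists, 0 of 19 contractile smooth muscle genes passed by edgeR or DESeq2 (7 at an unadjusted p under 0.05), and 17 were negative with a median of -0.37, or -0.18 without Western replicate 2 and normal replicate 1. Myh11, smooth muscle myosin, had 199, 132, 210 and 198 FPKM in Western libraries and 281, 368, 201 and 184 FPKM in normal libraries (-0.51 ± 0.21, edgeR adjusted p = 0.25). Normal replicates 3 and 4 were within the Western range. Myocd, the coactivator of the contractile programme, likewise overlapped (-0.65 ± 0.25, edgeR adjusted p = 0.23). Of 16 genes of modulated smooth muscle, 13 were positive with a median of 0.46 and 0 passed by edgeR (8 unadjusted, 4 by DESeq2). Lum, a small proteoglycan, was at 0.78 ± 0.23, Thbs1, a matrix glycoprotein, at 0.85 ± 0.25, and Ecrg4 at 1.11 ± 0.33 (edgeR adjusted p = 0.12 for each).

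Cartilage-like matrix genes had 9 of 13 positive, a median of 0.39 and 0 passing by edgeR (7 unadjusted, 2 by DESeq2). The summed level of all 23 listed genes did not overlap, with 156, 177, 168 and 169 FPKM in Western libraries and 141, 120, 95.8 and 105 FPKM in normal libraries. Col2a1, the collagen of cartilage, had 7.93, 30.5, 13.5 and 19.1 FPKM in Western libraries, against 6.74, 0.173, 0.714 and 0.385 FPKM in normal libraries. Normal replicate 1 stood far above the other normal libraries, and the change of 3.14 ± 0.93 did not pass (edgeR adjusted p = 0.12). Acan, the large proteoglycan of cartilage, was at 0.65 ± 0.20 and the cytokine-like Cytl1 at 0.60 ± 0.18 (edgeR adjusted p = 0.12 for each), without overlap in either. Fibrillar and network collagens were near 0 with 7 positive, 11 negative and a median of -0.04, and elastic fibre genes had 6 positive, 11 negative and a median of -0.08. In each of these lists 0 passed by edgeR or DESeq2 and 1 had an unadjusted p under 0.05. In the list of TGF-beta and BMP signalling 1 gene rose by edgeR (3 unadjusted, 3 by DESeq2). This was Ltbp2, a protein of elastic fibres, with 25.8, 23.1, 23.2 and 23.8 FPKM in Western libraries, against 17.9, 14.5, 14.5 and 14.1 FPKM in normal libraries (0.63 ± 0.11, edgeR adjusted p = 0.026). That list had 13 positive and 8 negative members with a median of 0.10, a positive share near the 58.0% of all protein-coding loci. Endothelial genes had 14 of 20 positive, a median of 0.12 and 0 passing by edgeR or DESeq2 (1 unadjusted), and the median was -0.01 without Western replicate 2.

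Matrix proteases and inhibitors had 15 of 23 positive, against 58.0% of all protein-coding loci, with a median of 0.13. Of them, 0 passed by edgeR (5 unadjusted, 3 by DESeq2). Those with the lowest p were Adam8, a metalloprotease of myeloid cells (1.22 ± 0.30, edgeR adjusted p = 0.077), Plau, the urokinase (0.81 ± 0.22, 0.10 by the same test) and Mmp12, macrophage elastase. Mmp12 had 6.26, 4.63, 6.07 and 4.93 FPKM in Western libraries, against 2.28, 1.42, 2.28 and 0.842 FPKM in normal libraries (1.65 ± 0.53, edgeR adjusted p = 0.14).

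Of 20 general macrophage markers 0 passed by edgeR (4 unadjusted, against 2905 of 18658 over all loci, and 1 by DESeq2). Of these markers 13 were positive, against 58.0% of all protein-coding loci, with a median of 0.29. Their summed level, however, was 1082, 780, 997 and 991 FPKM in the Western libraries, against 613, 327, 657 and 652 FPKM in the normal libraries, with no overlap. Lyz2, the myeloid lysozyme, made up much of that sum with 617, 455, 626 and 612 FPKM, against 325, 138, 325 and 388 FPKM (0.96 ± 0.38, edgeR adjusted p = 0.24). C1qc, a complement subunit made by macrophages, had 56.6, 34.8, 10.0 and 39.6 FPKM, against 7.53, 18.4, 6.92 and 22.1 FPKM, and overlapped. The resident macrophage markers Cd163, F13a1, Mrc1 and Lyve1 had log2 fold changes between -0.20 and -0.03, and Folr2 was at 0.22. Pla2g7, a secreted phospholipase of macrophages, rose (1.07 ± 0.19, edgeR adjusted p = 0.031), and so did the loci named Ear2, an eosinophil-associated ribonuclease with close paralogs (1.27 ± 0.24, edgeR adjusted p = 0.037), and Plxna1, a semaphorin receptor (0.68 ± 0.10, edgeR adjusted p = 0.017). The part of macrophage number in the sums was not tested.

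Mast cell markers had the highest list median among the immune lists, 1.64, with 5 of 5 measured genes positive, 4 without overlap and 0 passing by edgeR (4 unadjusted, 4 by DESeq2). Over all loci, 6.36% were higher without overlap. Cma1, mast cell chymase, had 6.30, 7.37, 4.14 and 5.12 FPKM in Western libraries, against 1.84, 0.494, 2.49 and 1.92 FPKM in normal libraries (1.74 ± 0.43, edgeR adjusted p = 0.075). Cpa3, the mast cell carboxypeptidase (1.44 ± 0.35, edgeR adjusted p = 0.073), and Tpsb2, a tryptase (1.67 ± 0.44, 0.087 by the same test), kept the same order of groups. The summed level of all 7 listed genes was 18.7, 26.1, 15.4 and 16.3 FPKM in Western libraries and 7.97, 4.90, 8.91 and 8.33 FPKM in normal libraries. At 6 weeks the median of this list was -0.54, with 0 of 5 positive. Plac8, a monocyte and lymphoid gene, was lower without overlap (-1.07 ± 0.23, edgeR adjusted p = 0.056). Interferon-stimulated genes had 3 of 15 positive with a median of -0.11, and T cell, B cell, chemokine and antigen presentation lists had overlapping sums. B and plasma cell markers had the lowest median of all lists, -1.42 with 0 of 5 positive, but 0.78 without normal replicate 4. Over these lists 0 members passed by edgeR, and among 17 chemokines and receptors 4 had an unadjusted p under 0.05 and 1 passed by DESeq2.

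S100b, a calcium-binding protein of Schwann cells that fat cells also make, rose with 8.90, 9.74, 6.08 and 7.68 FPKM in Western libraries, against 2.50, 3.88, 3.06 and 4.02 FPKM in normal libraries (1.25 ± 0.19, edgeR adjusted p = 0.017). The other Schwann cell and nerve genes did not follow: 0 of them passed, and the list with S100b included had 4 of 14 positive and a median of -0.18. Kng2, a kininogen, rose with 4.72, 5.60, 3.63 and 3.85 FPKM, against 1.27, 0.965, 1.86 and 1.97 FPKM (1.53 ± 0.28, edgeR adjusted p = 0.032). P2ry1, an ADP receptor, rose with 2.34, 3.06, 2.30 and 1.77 FPKM, against 0.527, 0.940, 0.764 and 1.11 FPKM (1.49 ± 0.24, edgeR adjusted p = 0.019). Both had groups that did not overlap. Myo5c, an unconventional myosin (1.35 ± 0.21, edgeR adjusted p = 0.017), Mme, the peptidase neprilysin (1.22 ± 0.24, 0.044 by the same test) and Dnajc28, a J-domain protein (1.15 ± 0.20, 0.025), completed the genes named by fold. Myo5c, Dnajc28 and a locus of Car14, carbonic anhydrase 14, were members only because all 4 Western libraries reached 1 FPKM, which 0 of the 4 normal libraries did. The Car14 locus had low levels, with 1.66, 2.58, 2.11 and 1.02 FPKM in Western libraries, against 0.281, 0.343, 0.336 and 0.868 FPKM in normal libraries (1.99 ± 0.38, edgeR adjusted p = 0.037), while another locus naming Car14 has a higher level and did not pass.

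By level, the most abundant passing loci were Psap, Cox8b, Ctsb, the locus naming Ctsd with Ifitm10, and Cox6b1. Psap, the precursor of the saposins that help degrade sphingolipids, had 686, 603, 690 and 640 FPKM in Western libraries, against 457, 326, 448 and 398 FPKM in normal libraries (0.66 ± 0.11, edgeR adjusted p = 0.023). Psap, with the cathepsins Ctsb (0.57 ± 0.11, edgeR adjusted p = 0.033) and Ctsd (0.78 ± 0.12, 0.017 by the same test), belongs to the lysosome list set aside here. Of its 44 genes, 7 rose by edgeR (27 unadjusted, 16 by DESeq2) and 41 were positive with a median of 0.27. Loci of 100 FPKM or more passed as higher in 6 of 144 cases, 4.17%, against 14 of 7802 loci, 0.179%, under 2 FPKM.

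Lists of stress and protein quality were mostly positive with small changes and 0 passing genes by edgeR. Proteasome subunits had 23 of 24 positive with a median of 0.27, 11 without overlap, 11 at an unadjusted p under 0.05 and 4 passing by DESeq2. Among all loci of 10 to 100 FPKM, 18.5% were higher without overlap. Psma1, a core subunit, had 14.1, 19.3, 15.3 and 13.9 FPKM in Western libraries, against 9.63, 8.61, 10.0 and 12.8 FPKM in normal libraries (0.59 ± 0.14, edgeR adjusted p = 0.065). Genes of the endoplasmic reticulum unfolded protein response had 18 of 20 positive (median 0.34, 11 unadjusted, 5 by DESeq2), with Dnajc3, a co-chaperone, at 0.37 ± 0.09 (edgeR adjusted p = 0.075). Cytosolic heat shock chaperones had 15 of 17 positive (median 0.43, 9 unadjusted, 3 by DESeq2), led by the chaperonin Hspd1 at 0.82 ± 0.20 (edgeR adjusted p = 0.079), which works in mitochondria. Hsf1, the heat shock factor, was among the 2 negative members (-0.40 ± 0.12, edgeR adjusted p = 0.11). Of NRF2 and glutathione genes 13 of 20 were positive (median 0.26, 9 unadjusted, 3 by DESeq2), with Sod2, the mitochondrial superoxide dismutase, at 0.81 ± 0.20 (edgeR adjusted p = 0.073). That positive share was near the 62.9% of all loci of 10 to 100 FPKM. Of iron and heme genes 12 of 14 were positive (median 0.27, 4 unadjusted, 3 by DESeq2), with the iron exporter Slc40a1 at 1.07 ± 0.23 (edgeR adjusted p = 0.056) and ferritin light chain, in a locus naming Ftl1 with Gm22133, at 0.43 ± 0.12 (0.11 by the same test). Immediate early genes leaned the other way, with 17 of 19 negative, a median of -0.27 and 0 passing by edgeR (1 unadjusted, 1 by DESeq2). Nr4a1, an inducible nuclear receptor, was at -0.83 ± 0.25 (edgeR adjusted p = 0.13). The median of this list was 0.07 without Western replicate 2 and normal replicate 1. Splicing factors and chromatin regulators had medians of 0.00 and -0.02, and 0 of their genes passed by edgeR (6 and 0 unadjusted, 3 and 0 by DESeq2).

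Loci lying wholly within introns were mostly lower with the Western diet. They carry a gene name in the table but overlap no annotated exon, and StringTie-type models of this kind can hold unspliced RNA or unannotated transcripts. Of 4216 such loci among the members (22.6%), 28.7% had a positive log2 fold change and the median was -0.17. Among 13558 loci with an annotated transcript the positive share was 53.8% and the median 0.02. Intronic loci had a lower median level than these (1.45 against 3.25 FPKM), and 39.4% of all loci under 2 FPKM were positive. A low positive share was not particular to introns. It was 28.0% for unconfirmed (TEC) loci, 30.8% for antisense loci and 33.4% for loci overlapping an exon of their gene. Loci outside the gene they name (45.6%) and lincRNA loci (45.3%) were nearer to all loci (47.6%). Of the 18 loci that fell, 9 were wholly intronic, and 0 intronic loci rose. Without overlap between the diets, 180 intronic loci were lower (4.27%) and 31 were higher (0.735%).

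The share of all counts in intronic loci was 5.68%, 4.87%, 4.79% and 5.63% in the Western libraries, against 6.12%, 6.80%, 5.92% and 5.96% in the normal libraries. Every Western library was below every normal one (5.24 ± 0.479% against 6.20 ± 0.407%, SD, n = 4 each, exact two-sided permutation test p = 0.0286, the smallest that 4 against 4 allows). Loci that name no gene showed the same order, with 0.511 ± 0.0248% and 0.732 ± 0.0676% of counts (exact p = 0.0286). At 6 weeks the intronic shares overlapped, with 6.81% to 8.02% in Western and 6.89% to 7.23% in normal libraries. RNA quality is not given in the sources used here, so whether nuclear RNA, RNA quality or expression moved with these shares was not tested.

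**Figure D5:**
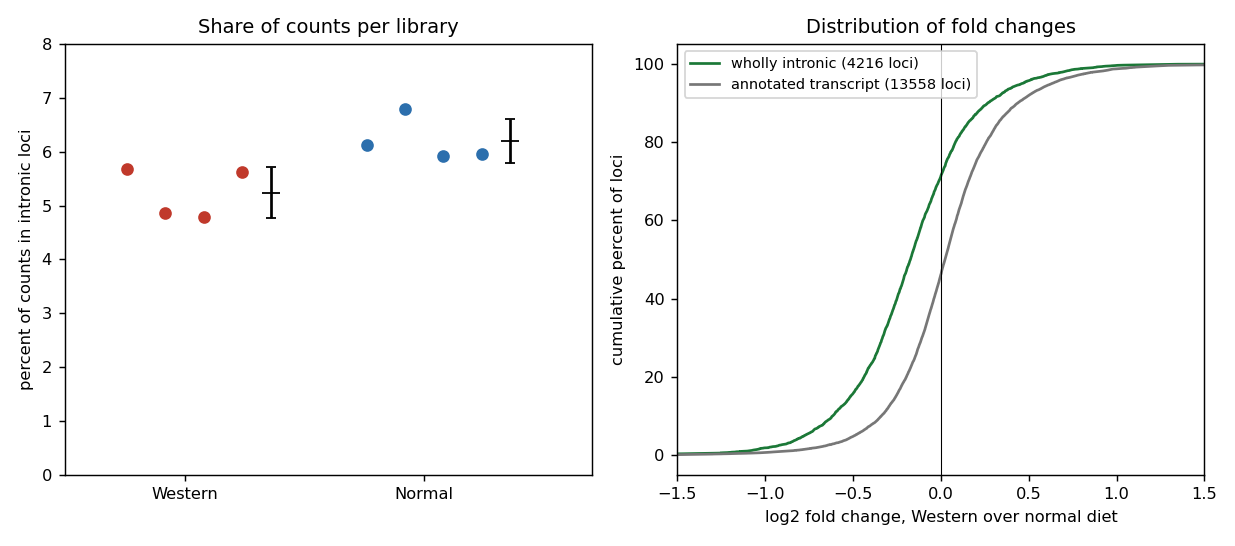
Left, percent of each library's counts in wholly intronic loci (linear axis from 0, Western left of normal, mean and SD beside the dots). Right, cumulative percent of loci by log2 fold change, where the curve of 4216 intronic loci lies left of the curve of 13558 annotated loci (medians -0.17 and 0.02).

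Within this class, the locus in Igf1r, the insulin-like growth factor receptor gene, lies at chr7:68013729-68024471 (GRCm38). It had 4.0, 3.28, 4.25 and 4.24 FPKM in Western libraries, against 5.29, 5.51, 4.97 and 5.11 FPKM in normal libraries (-0.43 ± 0.09, edgeR adjusted p = 0.049). A locus in Bcl2, the apoptosis inhibitor gene, lies at chr1:106651305-106675347 and fell by 0.66 ± 0.12 on the log2 scale (edgeR adjusted p = 0.032). Neither value stands for the spliced messenger RNA of the gene.

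The diet effect at 22 weeks was then set against the effect at 6 weeks, in libraries that the 2 comparisons do not share. At 6 weeks 57 of the same loci passed, 14 higher and 43 lower. Of the 60 loci that rose at 22 weeks, 29 had a positive log2 fold change at 6 weeks, and of the 18 that fell, 14 had a negative one. These counts have no share over all loci beside them and are a description only. The difference of the diet effects (22 minus 6 weeks) passed for 39 loci (0.209%): 33 positive (0.177%) and 6 negative (0.0322%). Of these, 12 were among the 78. The difference contains the 22-week values, so this overlap is partly built in. The count was 0 with the replicate number as a block and 6 without Western replicate 2 and normal replicate 1 of 22 weeks. Leaving out 1 library gave between 4, without Western replicate 2 or normal replicate 1 of 6 weeks, and 137, without Western replicate 4 of 6 weeks.

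Kng2, P2ry1, Myo5c and Dnajc28 rose at 22 weeks and had a negative, non-passing change at 6 weeks, with differences of 2.51 ± 0.40, 1.91 ± 0.34, 2.20 ± 0.29 and 1.44 ± 0.27 (edgeR adjusted p = 0.031, 0.035, 0.011 and 0.049). For genes that passed at 22 weeks the difference is no independent evidence, as it contains that change. Myo5c and Dnajc28 also became members only through the Western libraries. Mrpl4 and Mcat had differences of 0.79 and 1.03 (edgeR adjusted p = 0.036 and 0.035), and the lysosomal Ctsb and Ctsd of 0.80 and 1.07 (0.046 and 0.024 by the same test). For other genes the difference came with a change at the earlier age. Slc2a5, a fructose transporter of macrophages and other cells, fell at 6 weeks (-3.52 ± 0.46, edgeR adjusted p = 0.0031) and averaged 3.26 ± 1.59 FPKM in Western and 3.78 ± 1.88 FPKM in normal libraries at 22 weeks, a difference of effects of 3.28 ± 0.60 (edgeR adjusted p = 0.040). Fabp5, a fatty acid carrier of macrophages and fat, averaged 19.1 ± 1.23 FPKM (Western) and 12.6 ± 4.97 FPKM (normal) at 22 weeks, and 8.62 ± 2.98 FPKM (Western) and 29.5 ± 5.30 FPKM (normal) at 6 weeks (difference 2.40 ± 0.41, edgeR adjusted p = 0.035). The order of the diets for Fabp5 means was thus opposite at the 2 ages.

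Fatty acid and triglyceride synthesis genes had a median of 0.30 at 22 weeks (-0.01 without Western replicate 2 and normal replicate 1) and -0.73 at 6 weeks, where 1 of 15 was positive. Thrsp, a regulator of lipogenesis in fat, averaged 287 ± 128 FPKM (Western) and 200 ± 24.9 FPKM (normal) at 22 weeks, and 159 ± 30.9 FPKM (Western) and 434 ± 63.1 FPKM (normal) at 6 weeks (difference 2.01 ± 0.35, edgeR adjusted p = 0.035). Acss2, which makes acetyl-CoA from acetate, and Pgd, which supplies NADPH, had differences of 2.09 ± 0.34 and 1.73 ± 0.32 (edgeR adjusted p = 0.032 and 0.045). Thrsp, Acss2 and Pgd were picked after their values were seen. On the negative side, Dio2 averaged 8.04 ± 2.81 FPKM (Western) and 10.8 ± 2.38 FPKM (normal) at 22 weeks, and 37.2 ± 8.70 FPKM (Western) and 13 ± 2.84 FPKM (normal) at 6 weeks (difference -1.91 ± 0.35, edgeR adjusted p = 0.040). Endov, an endonuclease of inosine-containing RNA (-1.04 ± 0.19), and Ric8b, a chaperone of G protein alpha subunits (-0.62 ± 0.11), were also negative (edgeR adjusted p = 0.040 and 0.035). A locus beside Nfrkb, outside the annotated gene, had a difference of 2.45 ± 0.30 (edgeR adjusted p = 0.011) and did not pass at 22 weeks (0.23 ± 0.21, edgeR adjusted p = 0.66).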

How the data were processed

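Total RNA of mouse aorta was extracted with Trizol and sequenced on an Illumina platform, per the labels' protocols. Per the submitters' processing notes, cutadapt 1.9 and FastQC were used and the build was GRCm38. Aligner and counter were not given in the sources used here. Per the file headers, the deposited table holds FPKM and whole-number estimated counts for each locus. Low estimated counts pile up in steps of about 4 (the value 4 occurs 35277 times, 3 occurs 14716 times and 5 occurs 9394 times), so a deposited count may not be a number of fragments. Where the count was 0 the authors' FPKM was 1e-04. Loci naming no gene (0.484% to 0.785% of the counts in the 22-week libraries) entered neither library sizes nor tests. In the main fit the same held for named loci that were not members. Members held 95.3% to 97.7% of the counts of named loci over the 16 libraries.

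Counts of the 18658 members in all 16 libraries were tested with edgeR 4.0.16 (R 4.3.3): TMM scaling, 4 group means, glmQLFTest, two-sided, Benjamini-Hochberg adjustment over all members, threshold 0.05. This quasi-likelihood test gives no SE. The SE shown is the size of the log2 fold change divided by the square root of the test's F statistic. DESeq2 1.42.0 and limma 3.58.1, other filters, RLE scaling, the replicate number as a block and leaving out each library were alternatives. The edgeR step was tested on simulated counts. Single measures per library were compared by exact permutation of the 8 libraries with scipy 1.17.1. Locus classes come from GENCODE vM21 (GRCm38), and 5100 members carry no annotated transcript in the table. Motifs were searched in RefSeq windows. Genes were named by rule: the 15 largest passing changes per direction with 1 official symbol, a mean of at least 1 FPKM, non-overlapping groups and neither set-aside list, the 5 most abundant passing loci, passing members of each list and up to 3 members with the lowest p, and the leading differences from 6 weeks. Some genes that the rule names are not reported here. Others are said to be picked after their values were seen, as were Uqcr11, Pla2g7, Plxna1, Folr2, the other resident macrophage markers and the fat genes Ucp1, Cidea, Cox7a1 and Adrb3. The members and the gene lists were chosen with earlier results of these data known, so no p is adjusted over a list alone and no list has a test of its own.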

Additional observations from a re-analysis of the deposited data

Results flagged for a closer look

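Of 232 groups of 4 libraries looked at for the genes and library measures named here, 28 had 1 library far from the other 3 (a gap over the group's range above Dixon's 95% critical value), and chance flags about 1 in 20 groups. Of these, 19 were Western replicate 2. It was high for Hadhb (129.1 FPKM, against 60.6 to 65.4 in the other Western libraries), Suclg1 (53.07 FPKM), Uqcr11 (71.14 FPKM), Etfdh (38.47 FPKM), Ndufv1 (89.47 FPKM), Cyc1 (78.43 FPKM), Mdh2 (99.89 FPKM), Sod2 (13.87 FPKM), Cox7a1 (146.6 FPKM), Adrb3 (92.47 FPKM), Thrsp (477.6 FPKM), Pgam1 (120.7 FPKM), the Acat2 locus (28.7 FPKM), the Pyurf locus (6.009 FPKM) and Myo5c (2.688 FPKM). It was low for Lyz2 (454.8 FPKM), Myh11 (132 FPKM), Myocd (1.814 FPKM) and Mfap5 (11.85 FPKM). Western replicate 1 was high for Tyrobp (34.82 FPKM).

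Among normal libraries, replicate 1 was high for Col2a1 (6.735 FPKM, against 0.173 to 0.714 in the others) and Ltbp2 (17.91 FPKM). Replicate 3 was high for Plau (9.088 FPKM) and Myl1 (2.057 FPKM). Replicate 4 was high for the Pyurf locus (3.006 FPKM), Ccng1 (16.07 FPKM), Mcee (4.445 FPKM) and the Car14 locus (0.868 FPKM).

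The diet effect differed between 22 and 6 weeks for 17 named loci by edgeR's test of the difference (log2, 22 minus 6 weeks, adjusted p under 0.05). It was positive for Slc2a5 (3.284), Kng2 (2.506), a locus beside Nfrkb (2.45), Fabp5 (2.4), Myo5c (2.201), Acss2 (2.089), Thrsp (2.01), P2ry1 (1.909), Pgd (1.725), Dnajc28 (1.44), the Ctsd locus (1.07), Mcat (1.026), Ctsb (0.7955) and Mrpl4 (0.791). It was negative for Dio2 (-1.906), Endov (-1.04) and Ric8b (-0.6244). The difference contains the 22-week values by which some of these loci were named.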

How the results depend on the processing

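The count of 78 passing loci at 22 weeks was 826 by DESeq2, 251, 245 and 257 by limma with pseudocounts of 0.5, 0.1 and 1, 12 with no filter on low values, 161 at an FPKM minimum of 5, 83 with RLE scaling, 55 with the filter over all 16 libraries and 114 for loci naming 1 gene. It was 0 in edgeR with the replicate block (2264 at an unadjusted p under 0.05), 0 with the 22-week libraries alone and 0 there with the block (1812). Added after seeing the data, DESeq2 on the 22-week libraries alone gave 582, limma there 0, and leaving out the libraries highest and lowest in brown fat genes 13. Leaving out a 22-week library gave 8 (without normal replicate 2) to 502 (without normal replicate 4), with 18 without Western replicate 2, 27 without normal replicate 1, 31 without Western replicate 3, 46 without normal replicate 3, 47 without Western replicate 4 and 194 without Western replicate 1. Leaving out a 6-week library gave 41 to 116. The cause was not tested. Of the 39 differences between ages, DESeq2 gave 459, limma with a pseudocount of 1 gave 25, the block 0 (1959 unadjusted), the brown fat choice 6, and leaving out libraries 4 to 137. Same-numbered libraries of the 22-week diets had correlations of 0.03, -0.14, -0.02 and -0.08. The labels do not say whether the numbers mark pairs or batches, and these few values cannot decide it.

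Fabp3, S100b and Selenow kept their calls without each single library. Acadl, Hadhb, Suclg1 and Cox6b1 lost theirs without any single one of Western replicates 2, 3 and 4 and normal replicates 1, 2 and 3. Across all gene-level alternatives 2746 values kept direction and side of the threshold, 439 lost a call, 238 gained one and 0 reversed a call, while 2 values without a call changed sign. Of list medians, 1698 stayed within the spread and 35 moved. Total counts of 45253433 to 69280625 per library limit loci near 1 FPKM.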
